A study of Mus musculus with 10 samples.

Results

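Integrin chains that cDC1 are known to carry, or whose partner chains they carry, were followed at the level of mRNA in CD8+ dendritic cells (DCs) of the spleen, with and without the phosphatase Ppef2. The 10 genes that encode them were chosen by name: Itgax, Itgal, Itgam and their shared beta chain Itgb2, Itgae with Itgb7, Itga4 with both Itgb7 and Itgb1, and Itgav with Itgb1 and Itgb8. Of these 10 genes, 9 had a row among the 10767 genes of the deposited table, while Itgb8 had none and was not analysed here. There were 5 libraries per genotype, each from the spleens of 3 pooled mice aged 8 to 13 weeks. The study names 5 independent sorts. The 1 Ppef2+/+ and 1 Ppef2-/- library of the same replicate number, which the deposited values pair, were taken as 1 sort. Ppef2-/- mice carry a Ppef2 allele from a mutant embryonic stem cell resource in every cell of the body, were crossed with C57BL/6 mice, and were compared with sex- and age-matched Ppef2+/+ mice, and none of the mice had been treated. The cells of both genotypes were gated as CD11c+ MHCII+ CD8+ CD11b-. CD11c is the protein of Itgax and CD11b is the protein of Itgam, so that the gate itself asks for cells with the first and without the second.

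Integrins are surface receptors made of 1 alpha and 1 beta chain, which have to pair before they leave the endoplasmic reticulum, so that a chain without a partner does not reach the membrane. The chains with Itgb2 (β2) are found on leukocytes and bind ICAMs and complement fragments. αEβ7, whose αE chain is CD103, binds E-cadherin on epithelial cells. α4β7 and α4β1 bind MAdCAM-1, VCAM-1 and fibronectin, and αV integrins bind RGD motifs, among them those of latent TGF-β. cDC1 are the DCs that cross-present antigen to CD8+ T cells, and LFA-1 (αLβ2) on T cells and DCs meets ICAM-1 in the contact between both cells.

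Itgam and Itgax are direct neighbours and had the lowest and the highest level among the integrins followed here, which is why their promoters are shown. In GRCm38 (the build that UCSC calls mm10) and the GENCODE M21 annotation, Itgam covers chr7:128062640-128118491 and Itgax chr7:128129547-128150657, both on the plus strand, with a gap of 11.1 kb. Itgad (αD) follows Itgax after 3.72 kb at chr7:128154376-128223816, and Itgal lies on the same strand of chromosome 7 at chr7:127296260-127335138. The 250 bases before the RefSeq start of both genes (build GRCm38.p6, plus strand) were searched on both strands for GAGGAA, the core of the box that the myeloid transcription factor PU.1 recognizes. Matches are given in capitals, either as GAGGAA or as the reverse complement TTCCTC.
Itgam, chr7:128062390-128062639: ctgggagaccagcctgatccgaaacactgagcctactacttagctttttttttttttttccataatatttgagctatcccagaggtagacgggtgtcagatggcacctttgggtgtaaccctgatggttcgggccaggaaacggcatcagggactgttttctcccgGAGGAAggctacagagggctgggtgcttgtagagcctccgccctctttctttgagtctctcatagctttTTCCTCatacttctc
Itgax, chr7:128129300-128129549: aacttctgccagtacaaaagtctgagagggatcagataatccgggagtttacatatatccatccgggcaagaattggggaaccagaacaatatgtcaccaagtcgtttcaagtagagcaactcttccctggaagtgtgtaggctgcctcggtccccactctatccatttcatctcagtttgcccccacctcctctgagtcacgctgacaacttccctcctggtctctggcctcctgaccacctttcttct
The Itgam promoter held 2 matches, which begin 84 and 15 bases before the start, and the Itgax promoter held 0 matches in this window. The motif was found in 7639 of 32851 mouse promoters of the same length (23.3%). A match is a run of letters and does not show that a factor was bound.

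The levels of the integrins spanned a 214-fold range. Per kb of exon, Itgax was highest with 1336 ± 21.5 normalized counts in Ppef2+/+ CD8+ DCs (mean ± SD, n = 5 libraries), followed by Itgb2 with 784 ± 24.9 and Itgb1 with 673 ± 19.4. Itgal had 452 ± 20.7, Itga4 444 ± 4.63 and Itgb7 441 ± 23.5 normalized counts per kb, and the libraries of neighbours in this group overlapped. This group depends on the length used. Per kb of the coding transcript, Itgal had 655, Itga4 635 and Itgb7 456 normalized counts, beside 720 for Itgb1. The deposited values of all other neighbours did not overlap, but they lack the spread between sorts, so that a separation of close neighbours such as Itgb2 and Itgb1, whose means differ 1.17-fold, is not shown. Itgae had 118 ± 15.6, Itgav 31.1 ± 1.98 and Itgam 6.25 ± 0.869 normalized counts per kb. Itgax was thus above 98.4% of the 10392 genes of the table with a known length, Itgae above 80.6%, Itgav above 44.7% and Itgam above 10.4%. The order of the 9 genes was the same in Ppef2-/- CD8+ DCs. These are levels of cells that had been sorted as CD11c+ and CD11b-, so that for Itgax and Itgam the level of cDC1 and the choice made by the gate cannot be told apart.

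**Figure D1:**
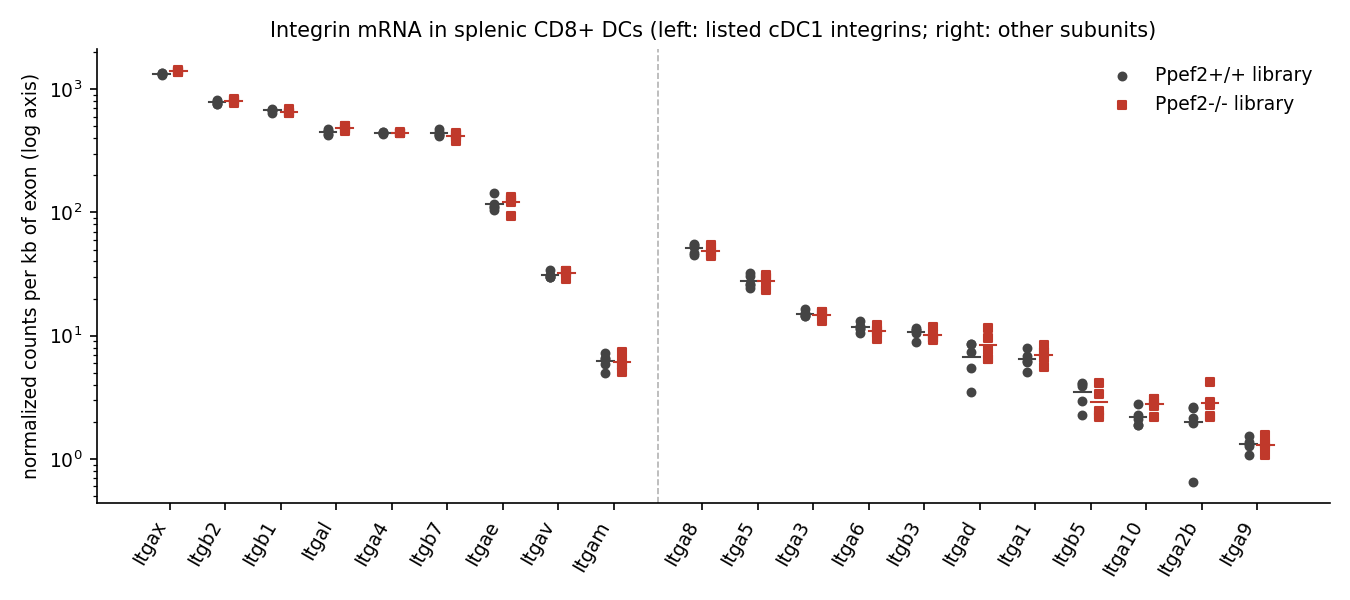
Normalized counts per kb of exon (log axis) of the 9 integrins with a row in the table (left of the dashed line) and of 11 other integrin subunits (right) in spleen CD8+ DCs. Each circle is 1 Ppef2+/+ library and each square 1 Ppef2-/- library, and short lines give the means of 5 libraries. Itgax is highest at 1336 in Ppef2+/+ libraries, Itgam lies at 6.25, and the points of both genotypes overlap in every gene except Itgax.

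The labels were checked with Ppef2 itself. Ppef2-/- libraries held 0 to 8 reads of the gene compared to 95 to 228 in Ppef2+/+ libraries, and Ppef2 was lower in 5 of 5 sorts (log2 fold change -4.78, limma, adjusted p = 0.018). With the sort means put back from the reads the log2 fold change of Ppef2 was -6.07. All 13 markers of cDC1 were in the table, and their sum ranged from 71955 to 74844 normalized counts in Ppef2+/+ libraries and from 72591 to 75480 in Ppef2-/- libraries. Depth could be followed in the 9521 genes whose values were solved for whole reads. Ppef2+/+ libraries held 1337947 to 2179902 reads in these genes and Ppef2-/- libraries 1449768 to 4242125, and the Ppef2-/- library was the deeper one in sorts 1 to 3 and the shallower one in sorts 4 and 5. In the deposited values the mean of each sort had been taken out, because in the 10721 genes with all values above the floor of 1 the Ppef2+/+ and the Ppef2-/- value give 1 common sum whichever sort is taken. In these genes, which include the 9 integrins but not Ppef2, the SD is therefore the same in both genotypes, the spread between sorts is missing from it, and a gene that is higher in 5 of 5 sorts is at the same time a gene whose genotypes do not overlap.

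To see whether Ppef2 deficiency goes along with other integrin levels, both genotypes were compared across all genes with limma (two-sided, log2(value + 1), Benjamini-Hochberg adjustment over 10767 genes), without a term for the sort as in the one-way model of the study. None of the 9 integrins passed an adjusted p of 0.05 (0 of 9), compared to 0.957% of all genes (103 of 10767), 0.474% being higher and 0.483% lower in Ppef2-/- cells. At an unadjusted p under 0.05 there were 2 integrins, Itgax and Itgal, compared to 17.5% of all genes (1888). With the sort as a block there were 0 integrins at an unadjusted p under 0.05, compared to 4.29% of all genes (462), and 0 at an adjusted p under 0.05, compared to 0.00929% (1 gene, Ppef2). The median log2 fold change was 0.04 over the 9 integrins and 0.00 over all genes, and 6 of 9 integrins had a fold change above 0 compared to 50.5% of all genes. Since the sort means had already been taken out, the fit without the block tends to give too small an SE and p. The SE of Itgax was 0.022 without and 0.045 with the block, and that of Itgae was 0.098 in both. These SEs are moderated, as limma draws the variance of each gene towards that of genes of similar level. They are thus not the spread of the 5 sorts alone. The log2 differences within the sorts ran from 0.02 to 0.14 for Itgax and from -0.61 to 0.37 for Itgae. Adjusted p values given below are of the fit without the block unless stated. The intervals given below are 95% intervals of the fit with the block, which compares the genotypes within the sorts. They carry the same moderation. They can thus be wider (Itgax) or narrower (Itgae) than the 5 differences of the gene alone would give.

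**Figure D2:**
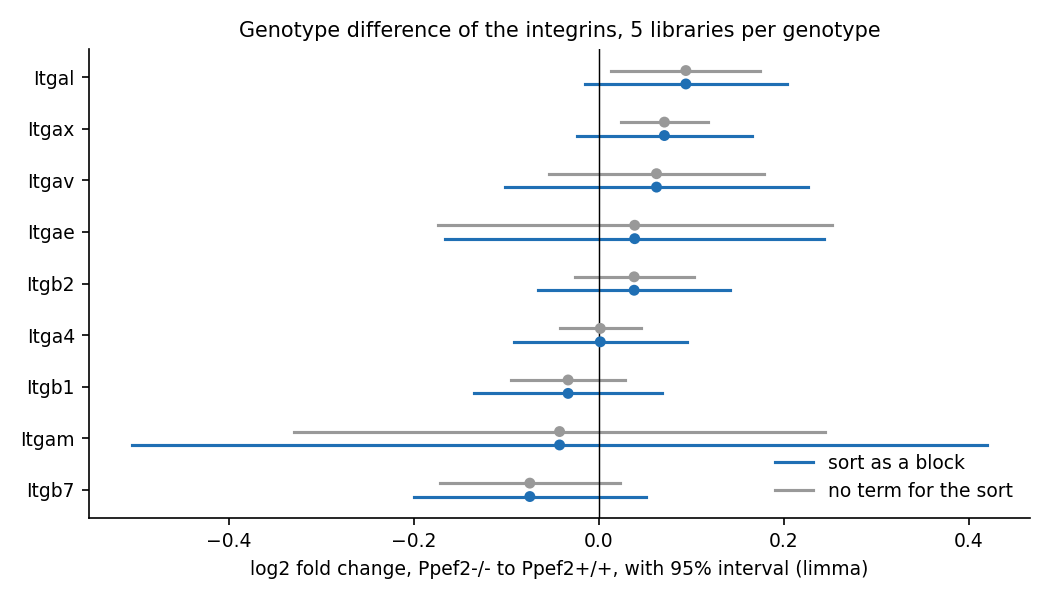
Log2 fold change of the 9 integrins from Ppef2+/+ to Ppef2-/- CD8+ DCs with its 95% interval (limma, 5 libraries per genotype). Grey lines are the fit without a term for the sort and blue lines the fit with the sort as a block. All blue intervals include 0, and that of Itgam is the widest, from -0.50 to 0.42.

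Itgax encodes αX, which forms CD11c/CD18 with β2. Ppef2+/+ libraries of sorts 1 to 5 held 6531, 6409.6, 6395, 6480.3 and 6259 normalized counts, and Ppef2-/- libraries 6622, 6743, 6758, 6673 and 6894. Every Ppef2-/- library was above every Ppef2+/+ library, which holds for 3.26% of all genes in this direction. The difference was small, from 1.39 to 10.1% of the Ppef2+/+ value, with means of 6415 ± 103 and 6738 ± 103 (SD, n = 5). It did not pass the test (log2 fold change 0.07, SE 0.02, limma adjusted p = 0.127), and the interval within the sorts was -0.02 to 0.17. An exact permutation test within sorts gave p = 0.0625, which is the smallest p that 5 sorts allow.

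Itgal encodes αL, the alpha chain of LFA-1. Its normalized counts in sorts 1 to 5 were 2810.3, 3010.6, 3019, 2860.1 and 3150.3 in Ppef2+/+ libraries and 3329.8, 3129.5, 3121, 3280.04 and 2989.8 in Ppef2-/- libraries. Values were higher in Ppef2-/- cells by 3.35 to 18.5% in sorts 1 to 4 and lower in sort 5, so that the genotypes overlapped. Itgal had the largest mean difference among the 9 integrins, 6.73%, and this difference did not pass the test (log2 fold change 0.09, SE 0.04, limma adjusted p = 0.216, interval within the sorts -0.02 to 0.20). Among 6859 genes with a mean of at least 100, the 3 genes whose differences in the 5 sorts were closest to those of Itgal were Wasl, Matr3 and Cebpz, at root mean square distances of 0.029, 0.034 and 0.037 on the log2 scale.

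Itgam encodes αM of Mac-1 (CD11b/CD18), a receptor of macrophages, monocytes, neutrophils and cDC2. Reads of Itgam were few. Sorts 1 to 5 gave 16, 26, 22, 30 and 39 reads in Ppef2+/+ cells and 73, 41, 38, 23 and 25 in Ppef2-/- cells. The deposited values were 24.9, 36.5, 29.7, 32.6 and 33.2 normalized counts in Ppef2+/+ cells and 36.9, 25.3, 32.2, 29.2 and 28.6 in Ppef2-/- cells. Neither genotype was higher throughout, since the Ppef2-/- value was above the Ppef2+/+ value in sorts 1 and 3 and below it in sorts 2, 4 and 5. In sort 1 the ratio of Ppef2-/- to Ppef2+/+ was 1.55, with a 95% interval of 0.892 to 2.85 from the reads (exact Clopper-Pearson, counting error only). At this depth a difference of Itgam was not detectable in any sort, and over the 5 sorts the interval of the log2 fold change was -0.50 to 0.42 (limma adjusted p = 0.904). Of the exonic bases of Itgam, 68.7% are shared on the same strand with Gm49368, a protein-coding model that is not in the table, and reads from both cannot be told apart here.

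Markers of macrophages and monocytes were looked at because these cells carry Mac-1. Of 15 such genes 12 were in the table. Lyz2, Cd68 and Hmox1 were the highest of them, with 810, 805 and 474 normalized counts in Ppef2+/+ cells. Csf1r, Ccr2 and Ly6c2 followed with 261, 230 and 67.3. Adgre1, C1qa, C1qb, C1qc, Spic and Cd5l had 14.8 to 41.9. The sum of the 12 was 2665 to 2951 normalized counts in Ppef2+/+ libraries and 2643 to 2929 in Ppef2-/- libraries. From sort 1 to sort 5 this sum differed by 264, -291, -125, 185 and -307 normalized counts (Ppef2-/- minus Ppef2+/+), beside differences of 48.1, -30.7, 8.52, -10.5 and -13.9% in Itgam. The signs were the same in sorts 1, 2 and 5, and the part of such cells in the Itgam value was not tested. In pooled cells of this kind, fewer cells of a type and less RNA per cell cannot be told apart.

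Itgb2 encodes β2 (CD18), the partner of all of the alpha chains above. Its levels were 2366, 2337, 2447, 2322 and 2499 normalized counts in Ppef2+/+ libraries and 2487, 2515, 2405, 2530.4 and 2354 in Ppef2-/- libraries. The Ppef2-/- value was higher in sorts 1, 2 and 4 and lower in sorts 3 and 5. The mean difference of 2.68% did not pass the test (limma adjusted p = 0.546, interval -0.07 to 0.14 on the log2 scale).

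**Figure D3:**
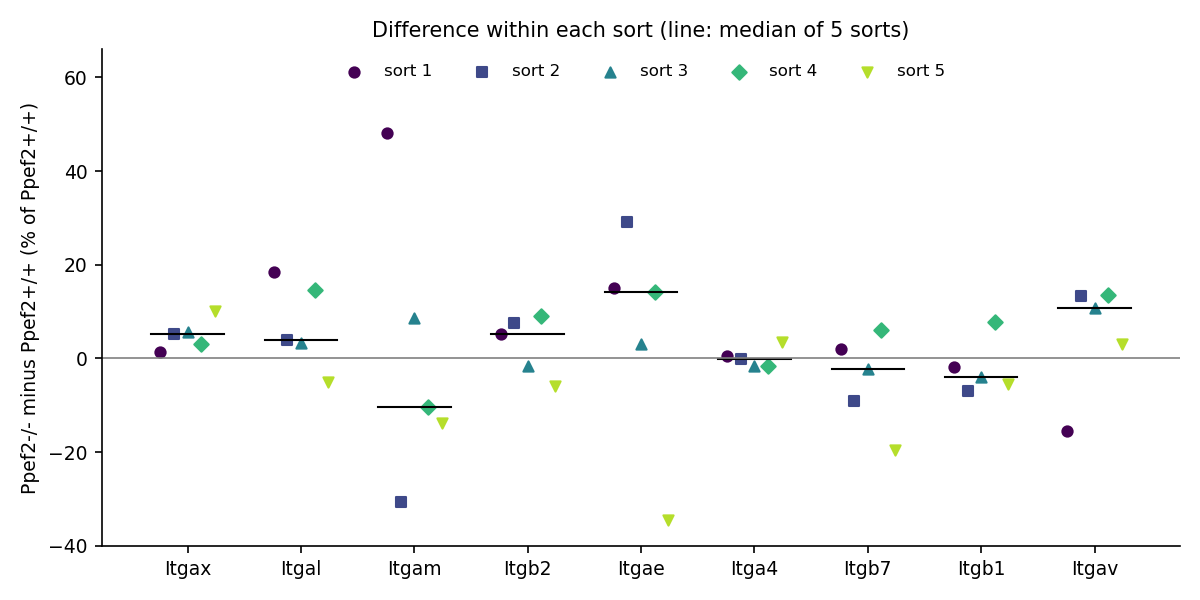
Within-sort difference of the 9 integrins (Ppef2-/- minus Ppef2+/+, in percent of the Ppef2+/+ value). Each symbol is 1 sort and each line the median of 5 sorts. Itgax lies above 0 in all 5 sorts, Itgae lies above 0 in sorts 1 to 4 and at -34.5% in sort 5, and Itgam spreads from -30.7 to 48.1%.

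Itgae encodes αE (CD103), which joins β7 and is a chain that many cDC1 of the spleen and of peripheral tissues carry. Its reads could be solved and were 418, 380, 299, 539 and 661 in Ppef2+/+ libraries and 1397, 1112, 497, 540 and 314 in Ppef2-/- libraries. The deposited values of sorts 1 to 5 were 509, 477, 539, 511 and 661 normalized counts in Ppef2+/+ cells and 585, 616, 555, 583 and 433 in Ppef2-/- cells. In sorts 1 to 4 Ppef2-/- cells had more Itgae, by 2.99 to 29.1%, whereas in sort 5 the difference was -34.5%. From the reads, the ratio of Ppef2-/- to Ppef2+/+ was 1.27 (95% interval 1.13 to 1.43) in sort 2 and 0.653 (0.569 to 0.748) in sort 5. These intervals do not overlap, and over all 5 sorts the genotypes overlapped (log2 fold change 0.04, limma adjusted p = 0.878, interval -0.17 to 0.24). The log2 fold change was 0.20 without sort 5 and -0.04 without sort 2 in the fit with the block.

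In sort 5, 6 of the 9 integrins were lower and 3 higher in the Ppef2-/- library, beside 50.2% of all genes that were higher. In the other sorts 2 to 4 integrins were lower, and 49.0 to 52.3% of all genes were higher. From sort 1 to sort 5 the sum of the cDC1 markers differed by 743, -1719, -578, 3525 and -2253 normalized counts (Ppef2-/- minus Ppef2+/+). It was lower in sort 5, where Itgae was lower, and also in sorts 2 and 3, where Itgae was higher. Of 10 cDC2 markers 9 were in the table, with sums of 1406 to 1953 normalized counts in Ppef2+/+ and 1447 to 1994 in Ppef2-/- libraries, and their sum differed by -6.91, 11.1, -65.4, -507 and 588. The part of such cells in the Itgae values was not tested.

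Itgb7 encodes β7, the partner of αE and α4. Ppef2+/+ libraries held 1180.2, 1249, 1205, 1156 and 1322 normalized counts and Ppef2-/- libraries 1203, 1135, 1178, 1227 and 1062. The Ppef2-/- value was lower in sorts 2, 3 and 5, with -19.7% in sort 5, and higher in sorts 1 and 4. The means were 1222 ± 65.1 and 1161 ± 65.1, and the difference did not pass the test (log2 fold change -0.07, limma adjusted p = 0.424, interval -0.20 to 0.05). Itgae and Itgb7 both had their lowest Ppef2-/- value in sort 5, and in sort 2 they went in opposite directions, with differences of 29.1% for Itgae and -9.14% for Itgb7.

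Itga4 encodes α4, which guides leukocytes to VCAM-1 and MAdCAM-1. It was the steadiest of the 9 integrins within the sorts, with differences between -1.65 and 3.50%. The deposited values of Itga4 were 6097 to 6255 normalized counts in Ppef2+/+ and 6152 to 6310.3 in Ppef2-/- libraries. These ranges lack the spread between sorts, so that steadiness between sorts is not shown. The log2 fold change was 0.00 (limma adjusted p = 0.980), with an interval of -0.09 to 0.09. Of the exonic bases of Itga4, 8.04% are shared with Cerkl on the opposite strand, and the libraries do not keep the strand.

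Itgb1 encodes β1, the beta chain with the most alpha partners. It ranged from 2615 to 2816 normalized counts in Ppef2+/+ libraries and from 2617 to 2818 in Ppef2-/- libraries, and was lower in Ppef2-/- cells in 4 of 5 sorts and higher in sort 4. The mean difference was -2.28% (limma adjusted p = 0.588, interval -0.14 to 0.07 on the log2 scale).

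Itgav encodes αV. Its reads numbered 299, 223, 200, 398 and 288 in Ppef2+/+ libraries and 758, 587, 358, 389 and 217 in Ppef2-/- libraries, and its normalized counts were 370, 320, 324, 319 and 336 compared to 312, 363, 358, 363 and 346. Ppef2-/- cells were higher in sorts 2 to 5 and lower in sort 1 (-15.5%). The difference of 4.43% in the means did not pass the test (limma adjusted p = 0.590, interval -0.10 to 0.23 on the log2 scale). Gm13684, a transcript on the opposite strand, shares 5.90% of its exonic bases.

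**Figure D4:**
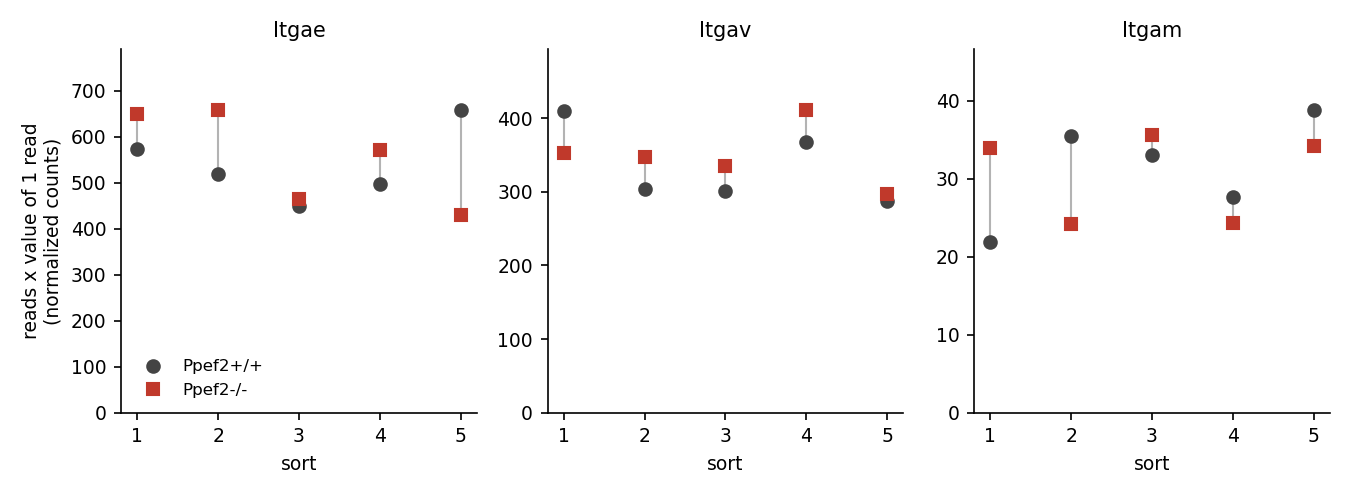
Level of Itgae, Itgav and Itgam in each sort as reads times the value of 1 read in the library (normalized counts), that is, with the mean of the sort put back. Circles are Ppef2+/+ and squares Ppef2-/- libraries, joined within a sort. Itgae ranges from 449 to 658 in Ppef2+/+ libraries and from 430 to 657 in Ppef2-/- libraries, and the order of the genotypes turns in sort 5.

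The 3 integrins with solved reads also gave the spread that the deposited table lacks. With the sort means put back, Itgae was 539 ± 79.8 in Ppef2+/+ and 554 ± 104 in Ppef2-/- cells, Itgav 334 ± 52.6 and 348 ± 41.0, and Itgam 31.4 ± 6.67 and 30.5 ± 5.68 normalized counts (mean ± SD, n = 5). The SD of Itgav in Ppef2+/+ cells was 21.2 in the deposited values. The same could not be done for Itgax, Itgb2, Itgal, Itgb7, Itga4 and Itgb1, which have values of 1000 or more.

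Alpha chains were then set beside their beta partners, as ratios of normalized counts per kb of exon within each library. Of 8 pairs, 7 could be compared, and αV with β8 could not. Itgax exceeded Itgb2 in each of the 10 libraries, with a ratio of 1.70 ± 0.08 in Ppef2+/+ and 1.74 ± 0.08 in Ppef2-/- cells. Itgal reached 0.576 ± 0.017 and 0.599 ± 0.016 of Itgb2, and Itgam 0.00798 ± 0.00117 and 0.00753 ± 0.00110. The 3 alpha chains together stood at 2.29 ± 0.07 of Itgb2 in Ppef2+/+ and 2.35 ± 0.08 in Ppef2-/- cells, and of their sum Itgax made up 74.4%, Itgal 25.2% and Itgam 0.348%. There was thus more alpha than beta mRNA in the β2 family, and nearly all of the alpha mRNA was that of αX and αL.

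The beta chain that αE and α4 share was closer to balance. Itgae reached 0.266 ± 0.025 of Itgb7 in Ppef2+/+ and 0.288 ± 0.029 in Ppef2-/- cells, and Itga4 1.01 ± 0.06 and 1.06 ± 0.07. Together they stood at 1.27 ± 0.06 and 1.35 ± 0.06 of Itgb7, with 79.0% of the alpha mRNA from Itga4. Itga4 is counted here in full, although α4 also joins β1. Itga4 was 0.659 ± 0.024 of Itgb1 in Ppef2+/+ and 0.675 ± 0.024 in Ppef2-/- cells, and Itgav 0.0462 ± 0.0031 and 0.0493 ± 0.0032.

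In each of the 7 pairs the mean log2 difference between the genotypes was smaller in size than its SD over the 5 sorts. Exact permutation tests within the sorts gave p between 0.1875 and 0.75, or 0.70 to 0.75 after Benjamini-Hochberg adjustment over the 7 pairs. Even before adjustment, p cannot go below 0.0625 in this design. No pair could thus have passed the threshold used for single genes, and these tests cannot decide whether a ratio differs. Itgal to Itgb2 was higher in Ppef2-/- cells in 4 of 5 sorts, with a mean log2 difference of 0.06 ± 0.08 (SD, n = 5 sorts), and Itgae to Itgb7 also in 4 of 5 sorts, with 0.11 ± 0.29. In each pair of β2 or β7 the alpha and the beta chain moved in the same direction in 2 to 4 of 5 sorts. The values carry the length of the gene model, and a ratio per kb of the coding transcript was higher in every pair, for instance 0.813 for Itgal to Itgb2 and 1.40 for Itga4 to Itgb7 in Ppef2+/+ cells.

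**Figure D5:**
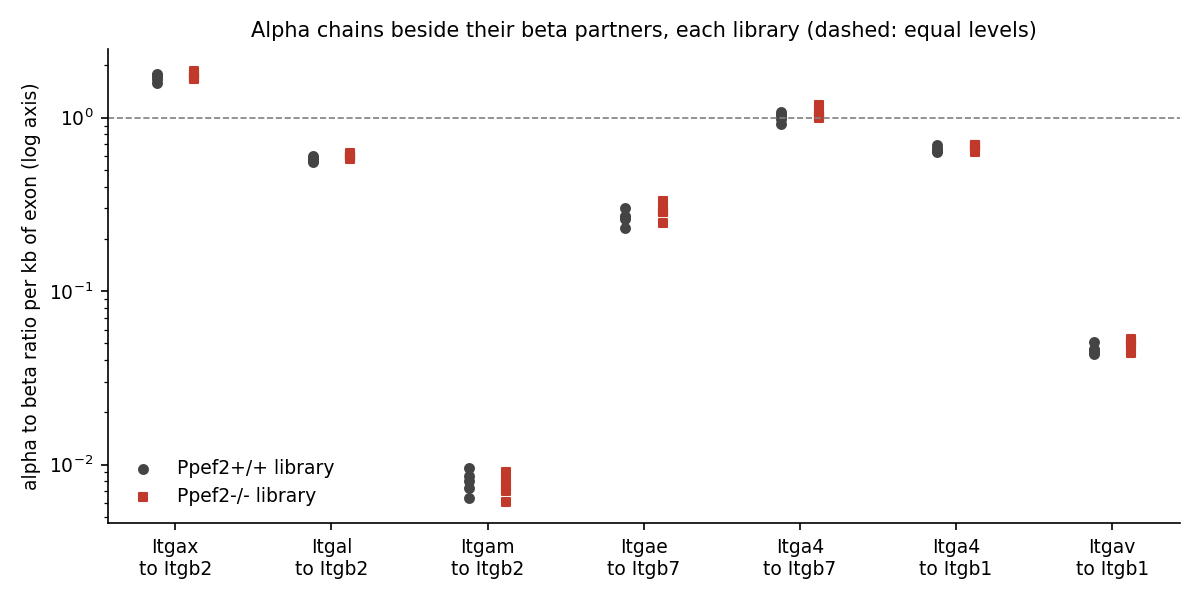
Ratio of each alpha chain to its beta partner in normalized counts per kb of exon (log axis), with 1 point per library, circles for Ppef2+/+ and squares for Ppef2-/-. Itgax lies above the dashed line of equal levels, Itga4 lies on it when set against Itgb7, and Itgam lies near 0.008.

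Of 18 further integrin subunits 11 were in the table, none of them passed the test (0 of 11 at an adjusted p under 0.05 by limma with or without the block, 0 at an unadjusted p under 0.05), and their median log2 fold change was -0.01. Itga8, which joins β1 to bind RGD ligands such as nephronectin, was the highest, with 51.0 ± 4.48 normalized counts per kb in Ppef2+/+ cells, which is above Itgav and below Itgae. Itga5 of the fibronectin receptor had 27.7, the laminin receptor chains Itga3 and Itga6 15.1 and 11.7, the collagen receptor chains Itga1 and Itga10 6.45 and 2.19, and Itga9 1.32 normalized counts per kb. With Itga4 and Itgav, these 9 alpha chains that can join β1 added up to 0.877 ± 0.024 of Itgb1 in Ppef2+/+ and 0.897 ± 0.024 in Ppef2-/- cells. Itga4 made up 75.2% of this sum. Per kb of the coding transcript, Itga4 alone reached 0.882 of Itgb1 in Ppef2+/+ cells.

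Itgb3 and Itgb5, which also take αV, had 10.7 and 3.48 normalized counts per kb in Ppef2+/+ cells, compared to 31.1 for Itgav. Itga2b, the platelet chain that joins β3, was among the lowest with 2.00 normalized counts per kb. Its reads were 6 to 11 in Ppef2+/+ and 12 to 27 in Ppef2-/- libraries, of which the Ppef2-/- ones were deeper in sorts 1 to 3. With the sort means put back, the genotypes overlapped. Itga2b then had 7.39 to 15.1 normalized counts in Ppef2+/+ and 12.2 to 27.4 in Ppef2-/- libraries. Of 13 platelet and erythroid genes 7 were in the table. Only Gp1ba of these is a platelet gene, with 14.8 normalized counts in Ppef2+/+ and 11.5 in Ppef2-/- cells. The others are globin genes, of which Hbb-b2 and Hbb-bt had the same means (12.7 and 12.2). The sum of the 7 was 194 to 321 normalized counts in Ppef2+/+ and 206 to 334 in Ppef2-/- libraries. From sort 1 to sort 5 this sum differed by 140, 85.9, 99.4, 31.4 and -115 normalized counts (Ppef2-/- minus Ppef2+/+) and Itga2b by -2.52, -1.997, 3.16, 5.29 and 19.4. Both went opposite ways in sorts 1, 2 and 5, and the part of platelets in the Itga2b value was not tested.

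Itgad, the neighbour of Itgax, stayed near the level of Itgam. Ppef2+/+ libraries held 26, 33, 16, 19 and 29 reads of Itgad and Ppef2-/- libraries 155, 60, 45, 18 and 14. In sort 1 the level with the sort mean put back was 35.6 normalized counts in Ppef2+/+ and 72.0 in Ppef2-/- cells, and Itgam was 21.9 and 33.9 in the same libraries. From sort 1 to sort 5 Itgad differed by 36.4, -9.54, 18.1, 1.46 and -9.71 normalized counts (Ppef2-/- minus Ppef2+/+). The sum of the macrophage and monocyte markers differed by 264, -291, -125, 185 and -307. The signs were the same in every sort but sort 3, and the part of such cells in the Itgad value was not tested. Per kb, Itgax was 199-fold above Itgad and 214-fold above Itgam in Ppef2+/+ cells.

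Of the proteins that activate integrins or tie them to actin, 47 of 54 listed genes were in the table and 0 passed the test by limma with or without the block. At an unadjusted p under 0.05 there were 10 of the 47, 4 higher and 6 lower in Ppef2-/- cells, beside 17.5% of all genes, and 0 with the block, beside 4.29% of all genes. The median log2 fold change was -0.01. The 3 with the highest level per kb were the adaptor Tyrobp (DAP12) with 986 ± 88.7 normalized counts in Ppef2+/+ and 989 ± 88.7 in Ppef2-/- cells, talin (Tln1), which switches integrins on from within, with 8512 ± 126 and 8345 ± 126, and filamin A (Flna), which competes with talin for beta tails, with 6771 ± 127 and 6446 ± 127. Flna was lower in Ppef2-/- cells in 5 of 5 sorts, as were 2.92% of all genes, and did not pass the test (log2 fold change -0.07, limma adjusted p = 0.142).

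Ligands of integrins were mostly low or had no row, as 8 of 21 were in the table and 0 passed the test. Icam1, the ligand of LFA-1, was the highest per kb with 1477 ± 66.9 normalized counts in Ppef2+/+ and 1504 ± 66.9 in Ppef2-/- cells, followed by Nrros, which presents latent TGF-β to αV integrins, with 979.7 ± 44.5 and 1007 ± 44.5, and osteopontin (Spp1) with 106 ± 19.5 and 126 ± 19.5. Vcam1, the ligand of α4β1, had 221 ± 24.2 and 233 ± 24.2 normalized counts. Icam2, a further ligand of LFA-1, had 27.9 ± 3.36 and 17.9 ± 3.36 and was lower in 4 of 5 sorts. Of the 8 ligands it was the only 1 with an unadjusted p under 0.05 by limma, beside 17.5% of all genes. Its log2 fold change was -0.62 (limma adjusted p = 0.069, or 0.995 with the sort as a block). The E-cadherin gene Cdh1 and the fibronectin gene Fn1 had no row and were not analysed here.

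αV integrins release TGF-β from its latent form, and TGF-β signalling is known for its part in CD103 expression. Of 18 genes of TGF-β supply and response 14 were in the table, with a median log2 fold change of 0.03, and 1 of the 14 passed the test in the fit without the block, beside 0.957% of all genes. This was Ski, a repressor of SMAD signalling, which had 207 ± 6.40 normalized counts in Ppef2+/+ and 174 ± 6.40 in Ppef2-/- cells and was lower in 5 of 5 sorts, as were 2.92% of all genes (log2 fold change -0.25, limma adjusted p = 0.031). The call was lost with the sort as a block (adjusted p = 0.995). Tgfb1 had 1416 ± 82.2 and 1315 ± 82.2 normalized counts (limma adjusted p = 0.274), the SMAD repressor Skil 1419 ± 162 and 1546 ± 162 (0.467), and Smad4 535 ± 34.3 and 546 ± 34.3 (0.829).

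Markers of other cells that carry these integrins were summed as well. Of 10 B cell genes 3 were in the table, with sums of 249 to 276 normalized counts in Ppef2+/+ and 255 to 282 in Ppef2-/- libraries. T cell genes had 1 of 9 in the table (Cd5, 38.5 and 40.9 normalized counts), NK cell genes 0 of 7, and neutrophil genes 2 of 9, with S100a9 at 13.7 and 7.47 and Csf3r at 8.58 and 11.8. All 8 genes of plasmacytoid DCs were in the table. Their sum was lower in the Ppef2-/- library of each of the 5 sorts, as were 2.92% of single genes. It was 1313 to 1421 normalized counts in Ppef2+/+ and 1175 to 1280.3 in Ppef2-/- libraries. Of these 8 genes Tcf4 passed the test without the block, beside 0.957% of all genes. It had 423 and 342 normalized counts (log2 fold change -0.31, limma adjusted p = 0.018, or 0.711 with the block). Siglech, Bst2, Ly6d, Klk1 and Pacsin1 were also lower in the mean of Ppef2-/- cells. Ccr9 (239 and 243) and Spib (171 and 175) were higher. The part of such cells in the integrin values was not tested.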

How the data were processed

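Single-end reads of 50 bp were made from poly-A RNA with a kit that does not keep the strand. Per the methods of the study, the authors aligned them to mm10 with HISAT (the submitters' processing notes list TopHat2 2.0.3), counted reads per RefSeq gene in Partek 6.6, normalized with DESeq2, set values below 1 to 1 and kept genes with a mean of at least 10 in either genotype. The deposited table of 10767 genes therefore holds a normalized count signal, not raw counts, and 0 columns were left out.

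For the 10721 genes with all values above the floor, the sum of the Ppef2+/+ and the Ppef2-/- value was equal in all sorts, and the deviations of both libraries from the genotype means correlated with r = -1.00 in each sort. The replicate numbers, which are sort numbers in the labels, thus pair the libraries. The step that removed the sort means is not named in the sources used here. Whole reads were calculated back for 9521 of the 9627 genes with values under 1000 (98.9%), by finding the value of 1 read in each library.

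Genotypes were compared with limma 3.58.1 (eBayes with a trend) in R 4.3.3 on log2(value + 1), with Benjamini-Hochberg adjustment over 10767 genes, and single values by exact permutation tests (two-sided). Fold changes are on this log2 scale. Lengths are the union of GENCODE M21 exons and promoters are from RefSeq, where 7 of the 10 integrins matched. Percentiles are among 10392 genes (96.5%) with a length. Tests and the read solver were checked on simulated data. Alternatives were a pseudocount of 0.1 or 10, genes with a mean of at least 50, a block for the sort, median ratio and quantile scaling, no trend, no log, sort means put back, voom on reads, coding transcript lengths and each library left out.

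The integrins and all gene lists were chosen with earlier results of these data known. Named from the other lists were the 3 genes with the highest level per kb, genes that passed the test, set ligands, and the 3 genes closest to the integrin with the smallest p in the blocked fit. Cd5, S100a9, Csf3r, Gp1ba, Hbb-b2, Hbb-bt and the members of count statements with few genes were named after their values were seen. So were the named markers of plasmacytoid DCs and of macrophages and monocytes. Libraries come from separate sorts of pooled mice. Intervals from reads cover counting error only, since reads carry no molecular identifiers.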

Additional observations from a re-analysis of the deposited data

How the results depend on the processing

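None of the 9 integrins passed an adjusted p of 0.05 under any alternative (0 of 221 fits), and 211 fits kept their direction. With the sort as a block, 1 gene of the whole table passed in place of 103, and 0 without a trend. The sort means put back gave 1 and voom on reads, blocked by sort, 3, both on 9521 genes. A fit without a trend gave 193 and one without a log 183. Leaving out 1 library gave 1 to 23 genes (1 without sort 2 of either genotype or sort 3 of Ppef2+/+), and leaving out 1 sort in the blocked fit 1 to 4. The cause was not tested.

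The direction turned in 3 integrins near 0, each with the cause not tested. Itgam had a log2 fold change of 0.0134 without the Ppef2+/+ and 0.0191 without the Ppef2-/- library of sort 2, and 0.0750 in the blocked fit without sort 2. Itgae had -0.0028 and -0.0020 without these libraries, and -0.0021 and -0.044 in the blocked fit without sort 1 and sort 2. Itga4 had -0.0045 and -0.0044 when the sort 5 library of Ppef2+/+ or of Ppef2-/- was dropped, and -0.0105 in the blocked fit without sort 5. With 1 library left out, log2 fold changes ranged from 0.06 to 0.08 for Itgax, 0.07 to 0.12 for Itgal, -0.12 to 0.0191 for Itgam, -0.0028 to 0.13 for Itgae and -0.0045 to 0.0048 for Itga4.

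Per kb of the coding transcript, the ratios in Ppef2+/+ cells were 1.97 for Itgax to Itgb2, 0.813 for Itgal to Itgb2, 0.0105 for Itgam to Itgb2, 0.307 for Itgae to Itgb7, 1.40 for Itga4 to Itgb7, 0.882 for Itga4 to Itgb1 and 0.0657 for Itgav to Itgb1, since the gene models of most alpha chains hold more exonic bases than 1 transcript. The order of the levels was the same. Sort means could not be put back for Itgax, Itgb2, Itgal, Itgb7, Itga4 and Itgb1. Itgam rests on 16 to 73 reads per library, which limits what can be said of it.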
